A study of Mus musculus with 31 samples.

Results

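Xlr3a, Xlr3b, Xlr4a, Xlr4b and Xlr5a belong to the X-linked lymphocyte-regulated family, a set of related mouse genes on the X chromosome. These 5 lie in a cluster there. In the sequence just before the gene, Xlr4a and Xlr4b are nearly identical, while Xlr3b and Xlr4b are not. The 5 genes were taken as members, and every array probe whose RefSeq accession belongs to one of them was used. This gave 7 probes of 55681 that are not controls, and all 7 were among the 43417 probes bright enough to be tested. The study's title names Xlr4 in neurons and vulnerability to cocaine, and its question was whether repeated cross-fostering in the first days of life changes gene expression in 2 brain regions of 2 inbred strains.

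Members of the family encode proteins related to SYCP3, a structural protein of meiotic chromosomes, and several act in the nucleus. In the developing brain Xlr3b, Xlr4b and Xlr4c are known as imprinted genes, expressed mainly from the X chromosome inherited from the mother. In cortical neurons Xlr3b and Xlr4b have been tied to the transcription factors Cux1 and Cux2 and to dendritic spines, and in models of ATRX loss a raised Xlr3b protein has been tied to the transport of Camk2a mRNA.

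RNA from female mice, labelled as 12 weeks old (other text of the labels gives a range that starts younger), was hybridised to 31 arrays of 1 colour. It came from the medial prefrontal cortex (mPFC) or the nucleus accumbens (NAc). The mice were C57BL/6J (called C57) or DBA2/J (called DBA), carried no transgene, and were not given cocaine or another drug as far as the labels say. Repeated cross-fostering (RCF) moved a whole litter daily to a new foster dam on postnatal days 1 to 4 and left it with the last one until weaning on day 28. Control litters were lifted on the same days and went back to their own dam, and at most 2 mice came from 1 litter. Each of the 8 groups of strain, region and treatment had 4 arrays, except C57 mPFC control with 3. The tissue is a mixture of cells, so fewer cells that express a gene and less RNA per cell cannot be told apart. Values are the log2 of the background-subtracted signal minus the 75th percentile of the same array, so 0 is the level that 75% of spots do not pass, and a difference of 1 is a doubling.

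Several facts about the arrays bear on each value below. For 29 of 31 samples, the listed scanner file was not the one whose signal equals that sample's column in the deposited series matrix, so arrays were named by their matching column. Under that assignment each of 4 slides held 1 strain and 1 region with both treatments, so slide cannot be told apart from strain or region, while RCF and control arrays share a slide. Within the slides of C57 mPFC, C57 NAc and DBA mPFC, all control arrays were at places 1 and 2 and all RCF arrays at places 3 and 4. Treatment and place cannot be told apart there. In DBA NAc the exceptions were control 4 at place 4 and RCF 3 at place 2. Place was not in the fit. In 4 pairs of arrays of 1 group the values differed by about the noise between spots of 1 array, and each pair was averaged and counted as 1 sample. This left 27 samples, with 3 control and 4 RCF in C57 mPFC, 2 and 4 in C57 NAc, 3 and 3 in DBA mPFC and 4 and 4 in DBA NAc. For 6 of the 27, marker genes went against the label. DBA mPFC control 1 had a strain score of 5.36 and DBA NAc control 4 one of 7.26, where the medians were 6.33 in C57 and 11.9 in DBA samples (mean of Glo1 and Gabra2 minus Gpnmb). DBA mPFC control 1 also had low Xist, at -6.03, and Y-linked genes at -1.76, although all mice are labelled female. The other 4 lay on the wrong side for region markers: C57 mPFC control 3, C57 mPFC RCF 1, the average of C57 NAc control 1 and 3, and C57 NAc RCF 1. These are called samples in doubt, and values without them are given beside many of the results.

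The sequence just before each gene shows how alike the members are there, outside the RNA that a probe binds. The 250 bases before the RefSeq start of 4 members are printed 5′ to 3′ on the strand of the gene, from RefSeq sequences of build GRCm38.p6. Capitals mark the letters CCAAT (the CCAAT box) and GCATGCGC (the core of the NRF1 motif). Xlr4a lies on the minus strand at chrX:73082508-73082757, Xlr4b on the plus strand at chrX:73214083-73214332, Xlr3b on the plus strand at chrX:73191929-73192178 and Xlr5a on the minus strand at chrX:73117703-73117952.
Xlr4a: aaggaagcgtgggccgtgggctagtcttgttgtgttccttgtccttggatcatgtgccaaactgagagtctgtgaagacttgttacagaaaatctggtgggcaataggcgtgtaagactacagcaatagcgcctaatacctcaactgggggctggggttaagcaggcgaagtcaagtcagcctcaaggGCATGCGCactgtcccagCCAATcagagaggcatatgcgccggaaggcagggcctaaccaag
Xlr4b: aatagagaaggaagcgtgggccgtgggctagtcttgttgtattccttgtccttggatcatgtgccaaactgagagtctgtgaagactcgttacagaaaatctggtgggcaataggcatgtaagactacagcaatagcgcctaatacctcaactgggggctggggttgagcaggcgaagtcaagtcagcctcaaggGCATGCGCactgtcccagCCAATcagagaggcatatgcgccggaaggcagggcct
Xlr3b: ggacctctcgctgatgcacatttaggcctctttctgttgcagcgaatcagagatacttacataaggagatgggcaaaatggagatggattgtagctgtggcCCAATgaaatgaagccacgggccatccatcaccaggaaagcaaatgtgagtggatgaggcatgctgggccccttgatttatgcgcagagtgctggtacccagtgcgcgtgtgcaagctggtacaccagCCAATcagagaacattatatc
Xlr5a: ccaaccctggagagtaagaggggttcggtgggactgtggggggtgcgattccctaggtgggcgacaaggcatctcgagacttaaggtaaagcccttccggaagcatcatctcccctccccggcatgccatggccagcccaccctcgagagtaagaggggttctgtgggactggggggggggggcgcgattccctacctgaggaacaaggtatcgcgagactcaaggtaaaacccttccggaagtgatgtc

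The Xlr4a and Xlr4b stretches matched at 239 of 243 aligned positions (98.4%), the second being shifted against the first by a few bases. Xlr3b and Xlr3c matched at 98.3% of 230 positions, Xlr5a and Xlr5b at all 205, and Xlr3a and Xlr3b at 85.4% of 206. CCAAT, searched on both strands, was present in 8 of the 10 Xlr promoters in the table, against 33.8% of all 32851 promoters of that length. GCATGCGC was present in 3 of the 10, namely Xlr4a, Xlr4b and Xlr4c, against 2.3% of all. TATAAA (12.4% of all promoters) and GGGCGG (32.7%) were present in none of the 10. Xlr4a and Xlr4b thus share their motif letters and nearly all of the sequence around them, while Xlr5a holds none of the letters searched. No probe or transcript sequence was compared here, and the likeness of promoters does not show what a probe binds. A probe named for 1 member may also bind the RNA of a near-identical one. A value is that of the probe, and the member behind it is uncertain to that extent.

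The probes differed in how well they were measured. Both Xlr3b probes, the brighter Xlr4a probe and the Xlr4b probe passed the scanner's test for signal well above background on all 31 arrays. The second Xlr4a probe was so on 22, Xlr5a on 13 and Xlr3a on 11. Averaged over samples, the brighter Xlr3b probe lay above 63.4% of the probes tested, and the brighter Xlr4a and the Xlr4b probe above 40.2% and 38.3%. No probe was saturated or marked as an outlier.

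Xlr3b, Xlr4a and Xlr4b varied from sample to sample within groups more than most probes of their level did. The samples in doubt are included here, and the spread was not computed without them. The pooled SD within groups was 0.69 for Xlr3b, 0.96 for Xlr4a and 0.89 for Xlr4b. The median over probes whose mean lay within 0.5 of theirs was 0.26, 0.32 and 0.33, and the members exceeded 95.1%, 97.0% and 96.2% of those probes. Xlr5a, at 0.63, exceeded 63.6% of its 4379 probes of like level. Among these 3 genes the widest range within a group was that of Xlr4a in DBA mPFC RCF, from -4.77 to -1.96 over 3 samples. Whether the arrays of a group are separate mice is not spelled out in the labels, so the p-values below measure the spread between these samples.

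**Figure D1:**
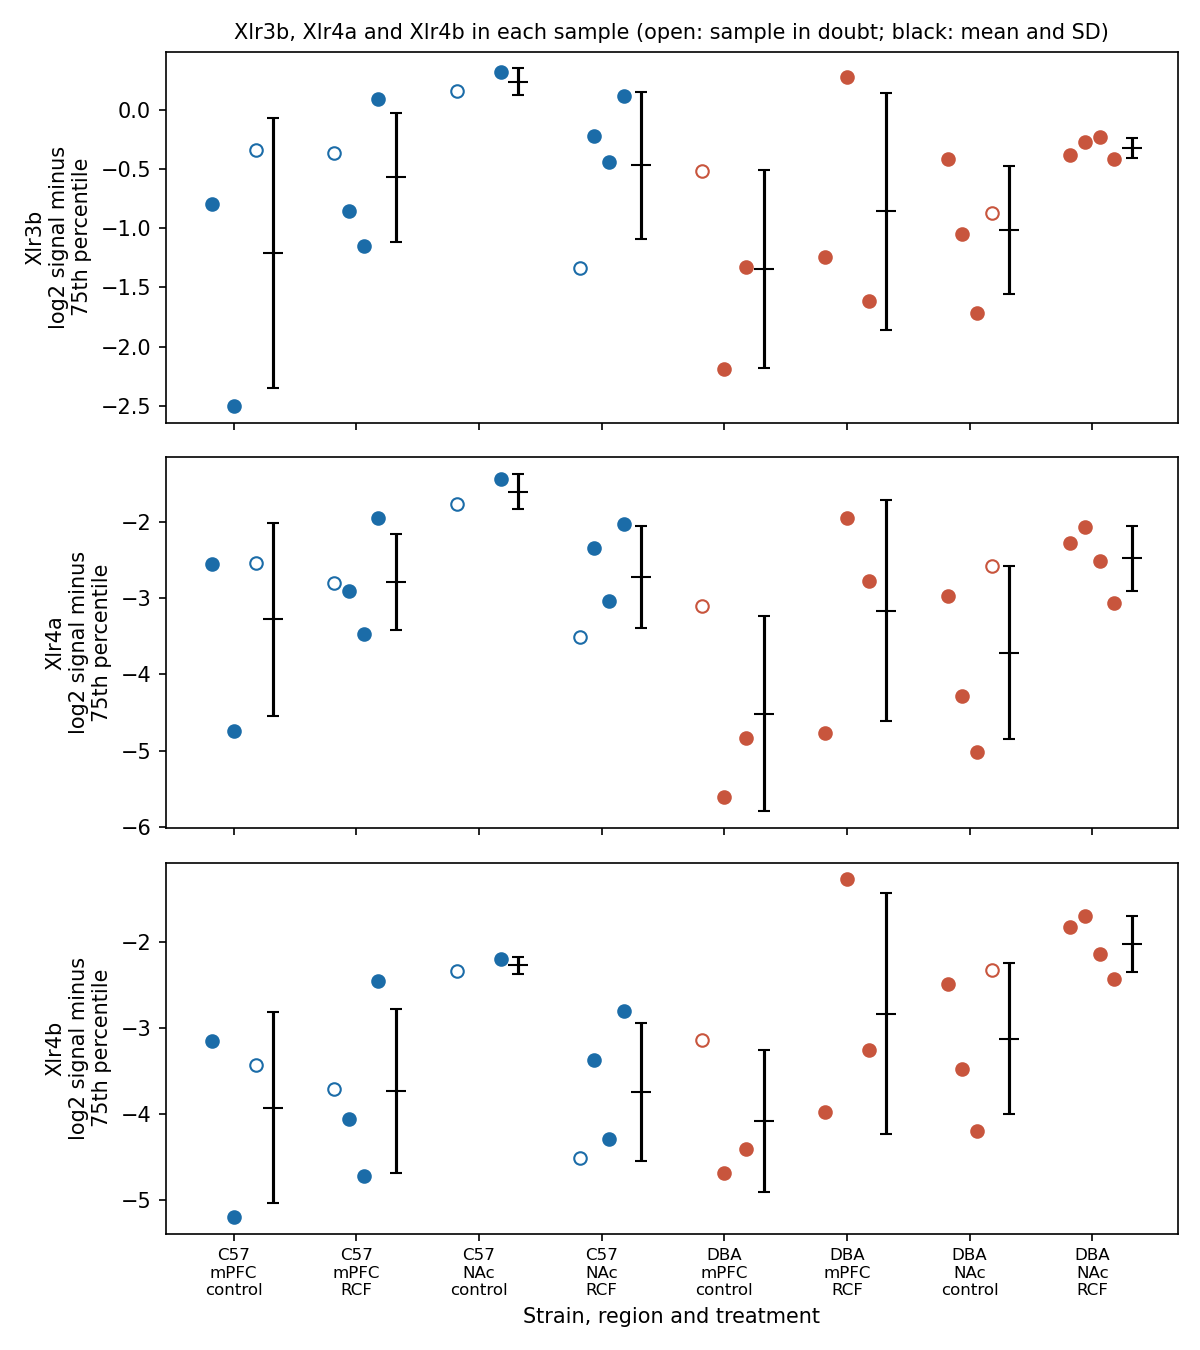
Log2 signal on the scale above, with the array's 75th percentile as 0 (y axis, 1 panel per gene), of Xlr3b, Xlr4a and Xlr4b in the 27 samples of 8 groups (x axis). Points are samples (blue C57, red DBA), open points are samples in doubt, and black bars are the mean and SD. Groups overlap widely, and the 4 DBA NAc RCF samples lie close together, for Xlr3b between -0.41 and -0.23.

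The samples that were high for 1 of these genes were mostly high for the others. Over the 27 samples Pearson's r was 0.86 between the 2 Xlr3b probes, 0.77 between Xlr3b and Xlr4b and 0.77 between Xlr4a and Xlr4b. After each group's mean was removed, the same values were 0.97, 0.89 and 0.93. Over the 21 samples not in doubt they were 0.88, 0.81 and 0.78, and without the 2 samples farthest from the median of the first probe of each pair, 0.78, 0.70 and 0.75. Xlr3a followed, with r of 0.70 with Xlr3b and 0.68 with Xlr4b, although it was below background on most arrays. Xlr5a did not follow: its r was -0.26 with Xlr3b and -0.19 with Xlr4b. These correlations are descriptions over samples that share slides and, for probes of near-identical genes, possibly the same RNA molecules.

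**Figure D2:**
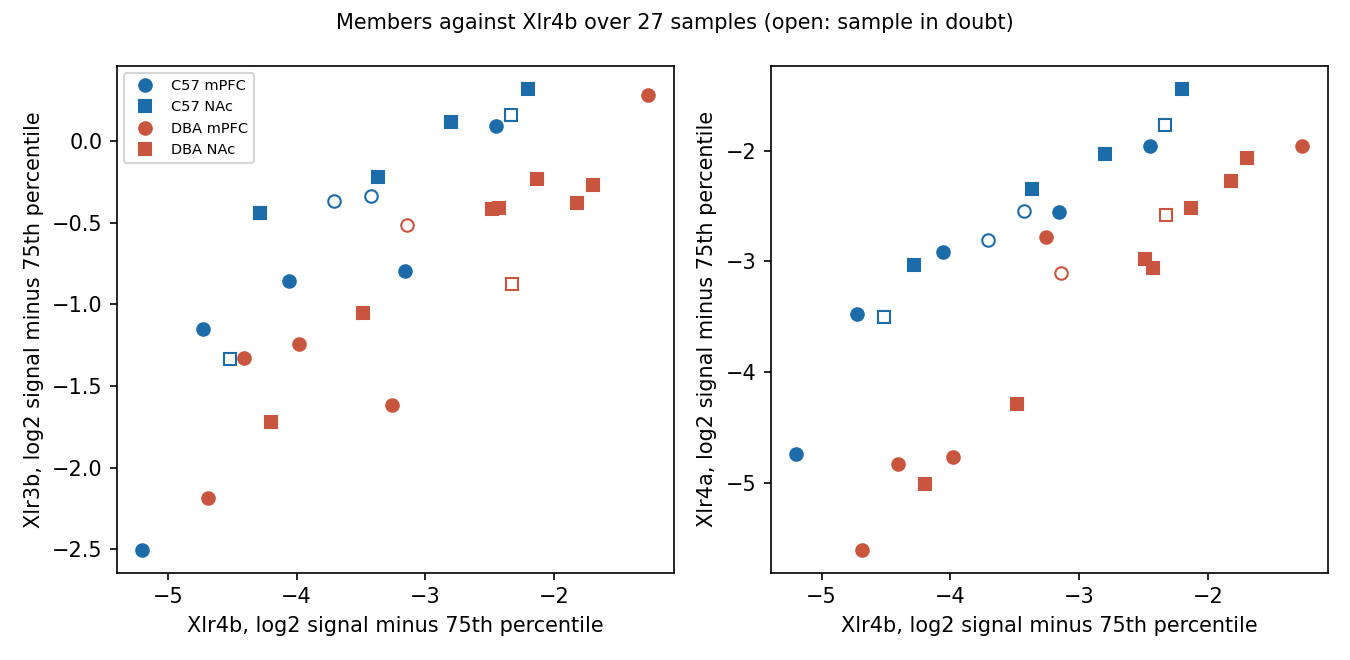
Xlr3b (left) and the brighter Xlr4a probe (right) against Xlr4b in 27 samples, all as log2 signal with the array's 75th percentile as 0. Colour gives the strain, shape the region, and open points are samples in doubt. Both genes run along with Xlr4b, with r of 0.77 each, and on the right the C57 points lie above most DBA points of the same Xlr4b level.

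The step between 2 probes of the family differed by strain within the same arrays. Xlr4a minus Xlr4b ran from 0.46 to 1.25 with a median of 0.88 in the 13 C57 samples. It ran from -0.92 to 0.48 with a median of -0.47 in the 14 DBA samples. The strains overlapped in 1 sample, DBA mPFC RCF 4 at 0.48, which is not in doubt. DBA mPFC control 1 and DBA NAc control 4, whose strain markers resemble C57, lay at 0.03 and -0.26. The 2 Xlr3b probes, which are named for 1 transcript, also stood farther apart in C57, by 1.04 to 1.97, than in DBA, by 0.32 to 1.08. Without the samples in doubt the DBA range was 0.32 to 0.96 and no longer met the C57 range. The offset was noticed after the values were seen and has no test, and since slides hold 1 strain each, strain and slide cannot be told apart.

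In the DBA NAc, Xlr4a, Xlr4b and Xlr3b had higher means in RCF than in control mice, and none passed the test, an adjusted p under 0.05 over all probes tested. Xlr4b was -2.49, -3.48, -4.20 and -2.33 in control 1 to 4 and -1.83, -1.70, -2.14 and -2.43 in RCF 1 to 4. Xlr4a was -2.98, -4.29, -5.01 and -2.58 in control samples and -2.28, -2.06, -2.52 and -3.06 in RCF samples. The groups met at the upper end of the controls: Xlr4b in RCF 4 lay below control 4, while control 2 and 3 lay below all RCF samples for both genes. Xlr3b was -0.42, -1.05, -1.72 and -0.87 in control and -0.38, -0.27, -0.23 and -0.41 in RCF samples, so no control sample reached the RCF range, control 1 lying just under it. RCF minus control was 1.23 ± 0.63 (SE) for Xlr4a, 1.10 ± 0.58 for Xlr4b and 0.69 ± 0.45 for Xlr3b. The second Xlr4a probe differed by 1.13 ± 0.42, unadjusted p = 0.0132 (limma), and the second Xlr3b probe by 0.47 ± 0.47. The adjusted p was 1.00 for each of these (limma), 0 of 7 member probes were called, and so was 0% of all probes in this comparison, where 1007 probes had an unadjusted p under 0.05. Without control 4, a sample in doubt, Xlr4a differed by 1.61 and Xlr4b by 1.37, and without control 3 by 0.80 and 0.74.

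In the DBA mPFC the means of the same genes were again higher in RCF, with 1 RCF sample far above the rest. Xlr4b was -3.14, -4.69 and -4.41 in control 1, the average of control 2 and 4, and control 3, and -3.98, -1.27 and -3.26 in the average of RCF 1 and 3, RCF 2 and RCF 4. Xlr4a was -3.11, -5.61 and -4.84 in control and -4.77, -1.96 and -2.78 in RCF samples in that order. Control 1, a sample in doubt, was the highest control for both genes and lay within the RCF range. Xlr3b was -0.51, -2.19 and -1.33 in control and -1.24, 0.28 and -1.61 in RCF samples, so only RCF 2 lay above the controls. RCF minus control was 1.35 ± 0.72 for Xlr4a, 1.24 ± 0.67 for Xlr4b and 0.48 ± 0.52 for Xlr3b, with an adjusted p of 1.00 for each (limma). Again 0 of 7 probes were called, against 0% of all probes, with 697 at an unadjusted p under 0.05. Without RCF 2 the differences were 0.74, 0.46 and -0.08, so the Xlr3b value turned. Without control 1 they were 2.05 for Xlr4a and 1.71 for Xlr4b.

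Averaged over both DBA regions, RCF minus control was 1.29 ± 0.48 for Xlr4a and 1.17 ± 0.44 for Xlr4b, and 0.82 ± 0.32 for the second Xlr4a probe. The unadjusted p of the last was 0.0183, and the adjusted p was 1.00 for all of them (limma). Xlr3b differed by 0.59 ± 0.34 in that average.

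In the C57 NAc the means ran the other way. Xlr4b was -2.34 and -2.20 in the 2 control samples and -4.52, -3.37, -4.29 and -2.80 in RCF 1 to 4. Xlr4a was -1.77 and -1.44 in control and -3.51, -2.35, -3.04 and -2.03 in RCF samples. All 4 RCF samples lay below both control samples for each of these genes, and for Xlr3b too, at -1.33, -0.22, -0.44 and 0.12 against 0.16 and 0.32. RCF minus control was -1.47 ± 0.71 for Xlr4b, -1.12 ± 0.77 for Xlr4a and -0.71 ± 0.55 for Xlr3b, with adjusted p of 0.455, 0.633 and 0.676 (limma). The second Xlr4a probe differed by -1.02 ± 0.52. None of the 7 probes was called, in a comparison where 0.481% of all probes were. Each control sample is the average of 2 near-identical arrays, and with only the control sample not in doubt and RCF 2 to 4 the differences were -1.28, -1.03 and -0.50.

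In the C57 mPFC 1 low control sample set the sign of the difference. Xlr4b was -3.16, -5.20 and -3.43 in control 1 to 3 and -3.71, -4.06, -4.73 and -2.45 in RCF 1 to 4. Xlr4a was -2.55, -4.74 and -2.55 in control and -2.81, -2.91, -3.48 and -1.95 in RCF samples, and Xlr3b -0.79, -2.50 and -0.34 against -0.37, -0.86, -1.15 and 0.09. Control 2 was the lowest of the 7 samples for all 3 genes. RCF minus control was 0.64 ± 0.48 for Xlr3b, 0.49 ± 0.68 for Xlr4a and 0.19 ± 0.63 for Xlr4b (adjusted p of 1.00 each, limma). Without control 2 they were -0.01, -0.24 and -0.45, and without RCF 4 that of Xlr4b was -0.24. None of the 7 probes was called, against 0% of all probes, with 1150 at an unadjusted p under 0.05. Over both C57 regions together none was called either, where 0.00691% of all probes were, and Xlr4b differed by -0.64 ± 0.47.

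**Figure D3:**
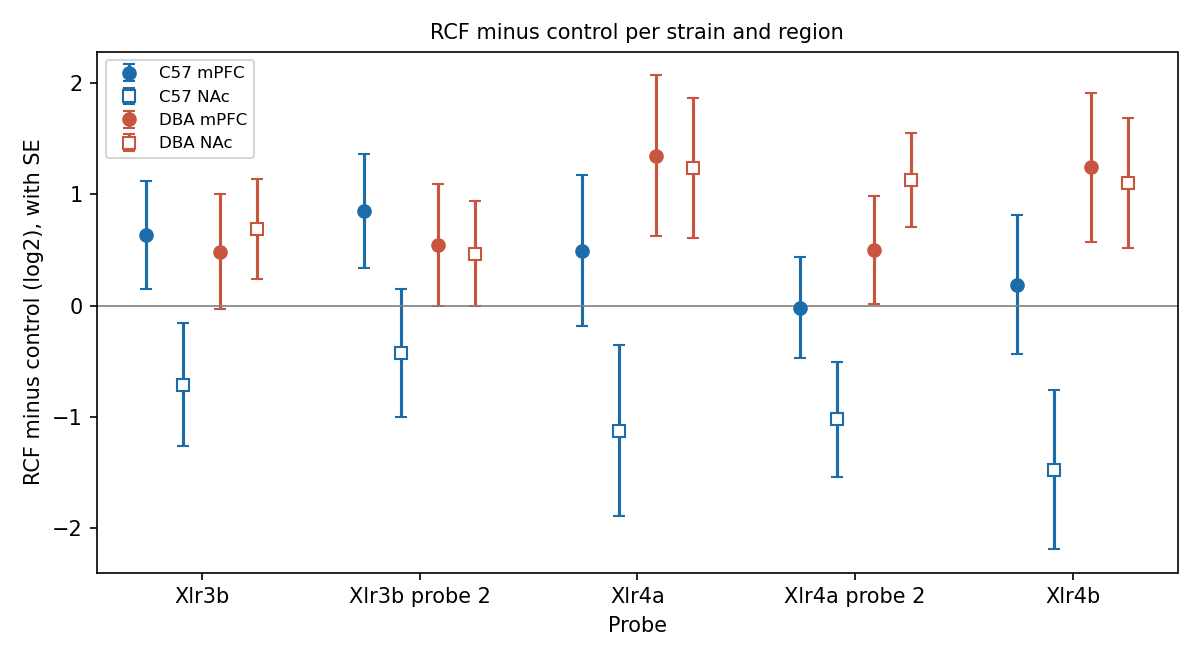
RCF minus control (y axis, log2) with its limma standard error for the 5 probes of Xlr3b, Xlr4a and Xlr4b (x axis) in each strain and region. Blue is C57, red is DBA, filled circles are mPFC and open squares NAc. For Xlr4b the DBA values are 1.24 and 1.10 and the C57 NAc value is -1.47, and no probe passed the test.

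The difference between the strains in the NAc response was tested as an interaction. DBA minus C57 of the RCF difference was 2.57 ± 0.92 for Xlr4b, 2.36 ± 0.99 for Xlr4a and 2.15 ± 0.67 for the second Xlr4a probe. The adjusted p was 0.493, 0.575 and 0.440 (limma), so none passed, and 0.0023% of all probes did. Leaving out 1 sample at a time kept the Xlr4b value between 2.22 and 2.89 and the Xlr4a value between 1.93 and 2.74. The 2 comparisons behind it share no samples, but the C57 side rests on 2 control samples.

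Markers of regional cell types moved with the same contrasts. In the C57 NAc the striatal projection neuron list was higher in RCF by value for 14 of 14 markers (median 1.12) and the cortical excitatory list lower for 10 of 10 (median -0.91), none of them called. The samples in doubt there, the average of control 1 and 3 and RCF 1, had cortical list means of 1.27 and 1.04. Without them the cortical mean was -3.69 in the control sample and -3.46 to -2.99 in the RCF samples, so its direction turned. The striatal mean was then 3.64 in control and 3.90 to 4.34 in RCF samples. In the DBA NAc the cortical list was higher for 10 of 10 (median 1.15) and the striatal list for 12 of 14 (median 0.16), none called. The cortical list mean ran from -3.69 to 1.27 in C57 NAc control, from -3.46 to 1.04 in C57 NAc RCF, from -4.70 to -3.10 in DBA NAc control and from -3.91 to -0.72 in DBA NAc RCF. In the DBA mPFC, the striatal list was lower for 14 of 14 markers (median -0.66), with its control 1, the sample in doubt, at a list mean of 2.35 and the other 5 samples at 0.26 to 0.41, and in the C57 mPFC the medians were -0.21 (striatal) and -0.26 (cortical). The striatal list mean in the NAc ran from 0.73 to 3.64, 0.86 to 4.34, 2.04 to 4.28 and 2.12 to 4.20 in the same order of groups, and no marker of either list was below background on all arrays of any of them. Across the 27 samples the r with Xlr4b was 0.13 to 0.29 for the striatal markers and -0.42 to -0.27 for the cortical ones. Their part in the Xlr differences was not tested.

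Lymphocyte markers were examined because the family was first described in lymphocytes. The mean of the 11 markers lay between -4.55 and -3.66 in all 27 samples. By group, 1 to 4 of the 11 were below background on every array. Of the T-cell genes, Cd3d was so in 7 of the 8 groups, while Cd3e was well above background on all 31 arrays, with a mean of 0.25. No lymphocyte marker was called in any of the 4 comparisons of RCF with control. Of the 8 tested, the r with Xlr4b ran from -0.39 (Cd4) to 0.28 (Lck), with a median of -0.16.

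Between the strains, 1 member probe passed in each of 3 comparisons. In the NAc of RCF mice Xlr4b was higher in DBA, at -2.43 to -1.70, than in C57, at -4.52 to -2.80, with no overlap. The difference was 1.72 ± 0.58 (adjusted p = 0.0491, limma), 1 of 7 member probes called against 14.4% of all probes. The call did not hold without C57 NAc RCF 1, a sample in doubt, where the difference was 1.46 with an adjusted p of 0.138 (limma), nor without 6 of the other 7 samples in turn, and it did hold without C57 NAc RCF 4 (2.04, adjusted p = 0.0349, limma). In control NAc the order was the reverse for Xlr4a, with all 4 DBA samples (-5.01 to -2.58) below both C57 samples, a difference of -2.11 ± 0.77. That had an adjusted p of 0.0623 (limma), and 0 of 7 probes were called against 16.3% of all. Without DBA NAc control 4, a sample in doubt, Xlr4a was called (-2.49, adjusted p = 0.0318, limma), and without both samples in doubt it was not (-2.65, adjusted p = 0.108, limma). Xlr3b differed there by -1.25 ± 0.55 (adjusted p = 0.118, limma), while Xlr4b differed by -0.85 ± 0.71. In the mPFC the DBA minus C57 differences of Xlr3b, Xlr4a and Xlr4b lay between -1.24 ± 0.72 (Xlr4a, control) and 0.90 ± 0.63 (Xlr4b, RCF), none called.

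Xlr5a stood apart from the other members, with its highest values in the DBA mPFC. On the 4 DBA mPFC control arrays it was at -3.25, -4.00, -3.44 and -3.96, and on the 4 RCF arrays at -4.06, -3.71, -4.09 and -4.01, all well above background. On the other 23 arrays it lay between -7.70 and -4.98 and was well above background on 5, among them 1 of the 4 control and 1 of the 4 RCF arrays of the DBA NAc. No array of the DBA mPFC overlapped with those of any other group. In control mPFC the level of Xlr5a in DBA exceeded that in C57 at least 5.14-fold, and in C57 none of 3 arrays was well above background (adjusted p = 0.000463, limma; 25.2% of all probes called). In RCF mPFC it was higher by a fitted 1.86 ± 0.46 (adjusted p = 0.00353, limma, against 35.6% of all probes called). That size is uncertain, as Xlr5a was well above background on 1 of the 4 C57 arrays. Within DBA it was lower in the NAc than in the mPFC, with a fitted difference of -3.11 ± 0.46 in control (adjusted p = 2.69e-05, limma; 37.4% called) and -2.77 ± 0.46 in RCF mice (adjusted p = 0.000104, limma; 38% called). Since 3 of the 4 NAc arrays in each treatment were not well above background, the direction is measured there but the size of these differences is uncertain. The fitted strain by region interaction over both treatments, whose size is uncertain for the same reason, was -3.10 ± 0.48 (adjusted p = 5.46e-05, limma; 30.4% called). In each of these comparisons it was the 1 member probe of 7 called, and in C57 mice, where 0.168% of probes were called between regions in control and 8.02% in RCF mice, none of the 7 was.

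Markers of other cells were also called in the same comparisons. Of the 8 lymphocyte markers tested, 3 were called higher in DBA mPFC than in C57 in each treatment. The shares over all probes were 25.2% in control and 35.6% in RCF mice, so these calls are no result about the list as such. Between the regions of DBA mice 5 were called lower in the NAc in each treatment and 1 higher in RCF mice. Of all probes, 37.4% were called there in control and 38% in RCF mice. Their list mean ran from -4.29 to -3.72 in DBA mPFC and from -4.55 to -4.11 in DBA NAc. All 10 cortical markers were called lower in DBA NAc in each treatment, and 8 (control) and 12 (RCF) of 14 striatal markers higher, beside the same shares of all probes between regions. Their part in the Xlr5a differences was not tested.

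The slide bears directly on the Xlr5a result. All 8 DBA mPFC arrays share slide 2, and DBA mPFC control 1, whose strain and sex markers go against its label, had the highest Xlr5a value of all, at -3.25. Under normexp background correction, which lifts dim signals by an offset, the differences shrank to 0.34 (DBA minus C57, RCF mPFC), -0.66 (DBA control, NAc minus mPFC) and -0.71 (DBA RCF), and none was called (adjusted p of 0.471, 0.111 and 0.0831, limma). The interaction was -0.48 (adjusted p = 0.278, limma) there. Without the samples in doubt the calls held, at 1.69, -3.29, -2.77 and, for the interaction, -2.85. Between the strains in control mPFC, too, no member probe was called under normexp, and the fold bound given above was not computed there. RCF minus control of Xlr5a in the DBA mPFC, within that slide, was -0.37 ± 0.49, and it was -0.03 ± 0.43 in the DBA NAc.

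**Figure D4:**
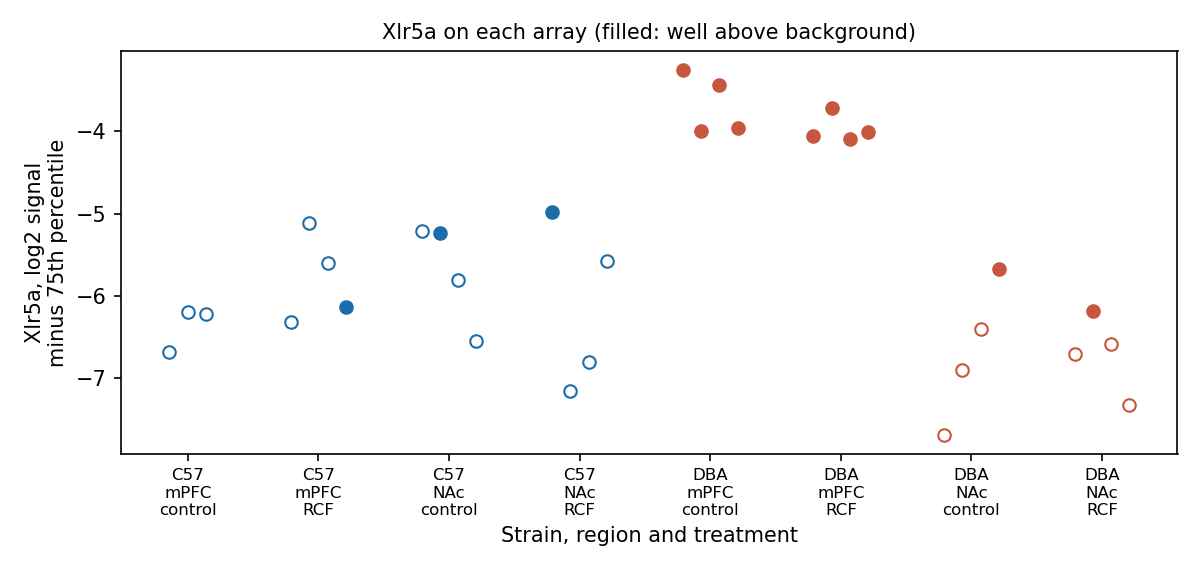
Log2 signal of Xlr5a with the array's 75th percentile as 0 (y axis) on each of the 31 arrays by group (x axis). Filled points are arrays where the spot was well above background, blue C57 and red DBA. The 8 DBA mPFC arrays lie between -4.09 and -3.25, above all others.

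Between the regions of C57 control mice, Xlr3b, Xlr4a and Xlr4b were higher in the NAc by 1.45 ± 0.58, 1.67 ± 0.81 and 1.66 ± 0.75, with adjusted p of 0.319, 0.433 and 0.392 (limma). Without C57 mPFC control 2, the low sample named above, the Xlr3b and Xlr4b values were 0.80 and 1.02. In the other 3 pairs of regions these probes differed by -0.01 to 0.96. Ordered by group mean, C57 NAc control was highest for Xlr3b (0.24) and Xlr4a (-1.61) and DBA mPFC control lowest for both (-1.34 and -4.52). For Xlr4b, DBA NAc RCF was highest (-2.02) and DBA mPFC control again lowest (-4.08). Of the 7 steps from each group to the next, the gap exceeded the SD of both groups in 1 for Xlr3b and 1 for Xlr4a, each time the first, and in none for Xlr4b. The order below the first place is therefore within the spread of the samples. Xlr3a was well above background on 1 of 4 RCF and 0 of 3 control arrays of the C57 mPFC. Its samples overlapped there, at -6.10 to -5.20 in RCF and -7.96 to -5.79 in control mice, so direction and size are both uncertain. RCF minus control of Xlr3a was 0.66 ± 0.57 in DBA mPFC and 0.03 ± 0.49 in DBA NAc.

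Relatives outside the 5 members were mostly below background. Xlr5b was well above background on 3 of 31 arrays and Xlr5c on 4 (brighter probe) and 0 (second probe), and these 3 probes were too dim to be tested. In DBA NAc control 4 they stood out, Xlr5b at -3.77 and Xlr5c at -3.69, against -8.62 to -7.72 and -8.02 to -7.09 in the other 3 samples of that group. DBA mPFC RCF 2, the sample highest for Xlr4b, also had Xlr5b at -5.18 and Xlr5c at -4.76. Like Xlr5a, the brighter Xlr5c probe had its highest group means in the DBA mPFC, at -5.93 in control and -5.90 in RCF mice. The means of the other groups ran from -7.95 to -6.48. In each DBA mPFC group Xlr5c was well above background on only 1 of 4 arrays. Xlr itself, an older branch of the family at another place on the X chromosome, ran from -5.07 to -4.09 on its brighter probe, with an r with Xlr4b of -0.19 over samples and -0.46 with group means removed. Its second probe, well above background on 4 arrays, ran from -8.58 to -5.05 over samples (r of -0.39). On single arrays its highest value was -3.73, in DBA mPFC RCF 3. RCF 1, the array averaged with it, had -8.10. No probe was matched to Xlr3c or Xlr4c.

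Of the wider list of 11 Xlr and SYCP3-like genes, 9 had a probe and 6 were tested. None was called between RCF and control. The smallest p values were those of Sycp3 (0.86 ± 0.52) and Sycp1 (1.69 ± 1.10) in DBA mPFC and of Slx (0.25 ± 0.18) and Sycp3 (0.46 ± 0.45) in DBA NAc. Between the strains Sycp3, a lateral element protein of the synaptonemal complex, was higher in DBA in RCF mPFC (2.19 ± 0.49), control NAc (2.19 ± 0.55) and RCF NAc (2.25 ± 0.45), with adjusted p of 0.00155, 0.00997 and 0.00145 (limma). Sycp1, the transverse filament protein of that complex, was higher in RCF NAc by 2.90 ± 0.95 (adjusted p = 0.0431, limma). Of the 6 tested, 1, 1 and 2 were thus called in RCF mPFC, control NAc and RCF NAc. The shares over all probes were 35.6%, 16.3% and 14.4%, so with 6 genes these calls are no result about the list as such. The list's median difference in those 3 comparisons was 0.87, 0.18 and 0.41, beside 0.14, 0.01 and 0.00 over all probes.

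The genes that flank the cluster on the X chromosome were described in the same way. Of the 20 nearest named protein-coding genes, 17 were tested, and none was called between RCF and control, as none of the member probes was. By value, 8 of 17 were higher in DBA mPFC and 7 of 17 in DBA NAc, with medians of 0.00 and -0.04. The 2 with the smallest p in the DBA NAc were Bgn, which encodes the matrix proteoglycan biglycan, at -0.46 ± 0.29, and Dusp9, a phosphatase of MAP kinases, at 0.57 ± 0.43. In the C57 NAc they were Haus7 (0.50 ± 0.23), a subunit of the augmin complex, and Atp2b3 (-0.42 ± 0.24), a calcium pump. Their r with Xlr4b ran from -0.44 (Cetn2) to 0.65 (Zfp275, the first gene past the cluster), with a median of 0.02.

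Between the strains, 3 of 17 neighbours passed in control mPFC and 4 of 17 in RCF mPFC, against 25.2% and 35.6% of all probes. They were Nsdhl, Haus7 and Bgn in both mPFC comparisons and Dusp9 in RCF mPFC, all higher in DBA, by 0.77 to 2.13. In the NAc Haus7 was higher in DBA by 1.23 ± 0.23 in control and 0.61 ± 0.19 in RCF mice, and Trex2 lower by -1.63 ± 0.54 in control mice. Between the regions of DBA mice 6 of 17 passed in control and 7 of 17 in RCF mice, against 37.4% and 38% of all probes. Gabrq, Zfp92 and Pnck were higher in the NAc and Bgn and Dusp9 lower in both treatments. Pnma3 was higher in control mice only by call, at 0.86 ± 0.30, and Atp2b3 higher (0.90 ± 0.21) and Trex2 lower (-1.27 ± 0.47) in RCF mice. None of the 17 was called between the regions of C57 mice. Bgn shared the direction of Xlr5a in the mPFC and NAc, being lower in DBA NAc by -1.87 ± 0.32 in control mice (adjusted p = 0.000116, limma).

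None of the 10 genes that earlier work ties to Xlr3b and Xlr4b was called under RCF. Cux1 (0.14 ± 0.19) and Atrx (0.16 ± 0.22) had the smallest p values in DBA NAc, and in DBA mPFC it was Kcna2 (0.53 ± 0.23) and Atrx (0.38 ± 0.25). In the C57 NAc Daxx, a histone chaperone that works with Atrx, differed by -0.40 ± 0.12 (adjusted p = 0.157, limma) and Camk2a by -0.93 ± 0.51. The r with Xlr4b was 0.55 for Cux1 and -0.32 for Cux2.

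Between strains 1 of the 10 passed in control mPFC, 3 in RCF mPFC, 0 in control NAc and 1 in RCF NAc, and between the regions of DBA mice 4 in each treatment, shares near or below those of all probes given above. H3f3a, which encodes the histone variant H3.3, was lower in DBA mPFC in control (-0.59 ± 0.17) and RCF mice (-0.81 ± 0.16), and Kcna2 (1.43 ± 0.22) and Cux2 (0.88 ± 0.34) were higher in DBA mPFC of RCF mice. Daxx was higher in DBA NAc of RCF mice (0.39 ± 0.10) and, within C57 RCF mice, lower in the NAc (-0.51 ± 0.10). In DBA mice of both treatments Cux1 was higher in the NAc (0.60 ± 0.20 in control) and Cux2, a marker of upper cortical layers, Camk2a and Kcna2 were lower.

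Imprinted genes and genes of X inactivation or dosage gave no call under RCF either. Of 20 imprinted genes tested, 8 were higher by value in the DBA NAc and 11 in the DBA mPFC, with medians of -0.06 and 0.02. Those with the smallest p were Grb10 (-0.64 ± 0.41) and Ndn (-0.44 ± 0.39) in the DBA NAc and Ube3a (0.53 ± 0.20) and Peg10 (-1.75 ± 1.15) in the DBA mPFC. Of 6 X-dosage genes tested, the smallest p in the DBA mPFC were those of Eif2s3x (0.61 ± 0.23) and Xist (2.07 ± 0.90), the latter with DBA mPFC control 1 at -6.03. In that list the r with Xlr4b was at most 0.48 (Kdm6a), and among the imprinted genes it ran from -0.48 (H19) to 0.50 (Meg3).

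Between strains, 3 of 20 imprinted genes were called in control mPFC and 6 of 20 in RCF mPFC, against 25.2% and 35.6% of all probes, so these calls are no result about the list as such. Snrpn (1.20 ± 0.24 in control, 1.53 ± 0.22 in RCF mice) was higher in DBA and Kcnq1ot1 (-0.82 ± 0.17 and -0.93 ± 0.16) lower in both treatments. Grb10 was lower in control mice (-1.27 ± 0.47), and in RCF mice Ndn (1.20 ± 0.43) and Ube3a (0.80 ± 0.19) were higher and Zim1 (-2.06 ± 0.79) and Peg10 (-3.32 ± 1.07) lower. In control NAc, where 2 of 20 were called against 16.3% of all probes, Peg3 (1.19 ± 0.37) and Impact (0.72 ± 0.22) were higher in DBA, and none was called in RCF NAc. The values of Xlr3b and Xlr4b, imprinted in the developing brain, were not called in the mPFC between strains. Of the X-dosage list, Kdm6a was higher in DBA in RCF mPFC (0.50 ± 0.17) and Ddx3x lower in control NAc (-0.38 ± 0.12).

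Genes whose pattern over the 27 samples was most like that of the family were sought among 20181 probes of named genes seen on at least 75% of arrays. Closest to Xlr3b were Cpt1b (r = 0.73), Sox2 (0.66), Tomm40l (0.65), Ddx18 (0.65) and Heatr6 (0.64). Closest to Xlr4b were Cep164 (0.72), Zfp623 (0.72), Dicer1 (0.71), Nedd4 (0.70) and Hells (0.69). No gene outside the family reached the r of 0.77 between Xlr3b and Xlr4b. With group means removed, the r of these 10 ran from 0.52 (Cep164) to 0.72 (Cpt1b), below the 0.89 between Xlr3b and Xlr4b.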

How the data were processed

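Each array's spots were read with Agilent Feature Extraction 10.7.3.1, per the file headers, and the deposited intensity is its background-subtracted processed signal. The authors' series matrix holds log2 intensity on a common scale, deposited without a stated method, and limma is named in the submitters' processing notes. Arrays were assigned to samples by correlation with that matrix (own r at least 0.999996, other columns at most 0.998). Other marks per spot, deposited as yes or no, gave detection and saturation. The share of probes detected over background ran from 58.6% to 81.9% by array. Precision is limited by how many arrays there are. RefSeq accessions in the files named 28026 probes.

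Here log2 intensity minus the array's 75th percentile was fitted with limma 3.58.1 (R 4.3.3) as 8 group means with a trended prior. Probes detected over background on 3 or more arrays of 1 group and marked as outliers on at most 50% of arrays were tested, and p-values were adjusted by Benjamini-Hochberg over 43417 probes with a threshold of 0.05. The fit was tested on simulated data. An "at least" fold sets the brighter group's mean against the lowest detected signal. Normexp used an offset of 50 on the median spot signal, since the mean signal named in the plan is not in the files used here, and was set after seeing the files.

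Members and lists were chosen with earlier results of these data known. Every member probe was named, and from each gene list, in the comparisons described for it, the genes called or otherwise those with the 2 smallest p values. For imprinted and X-dosage genes the comparisons between regions were not described, and cell markers were given as counts. Values of 1 listed gene are not reported here. For likeness it was the 5 named genes with the highest r. Promoter sequences are from RefSeq, GRCm38.p6. Proteins and probe sequences were not used here. Alternatives were normexp, quantile normalization, other filters, array weights, 31 arrays as samples, the series matrix, files as listed, 1 probe per gene, a replicate block, and leaving out samples.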

Additional observations from a re-analysis of the deposited data

Results flagged for a closer look

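Xlr5a differed between DBA and C57 mice in how its level changed from mPFC to NAc. The interaction was -3.10 on the log2 scale (limma), from NAc minus mPFC differences of -3.11 in control and -2.77 in RCF mice of DBA. In C57 RCF mice the difference was -0.33, with 1 of 4 arrays of each region well above background. In C57 control mice 1 of 4 NAc arrays and none of the 3 mPFC arrays were well above background, so direction and size are both uncertain there. In the DBA NAc 1 of 4 arrays of each treatment was well above background, so the sizes of the differences and of the interaction are uncertain. Under normexp background correction the interaction was -0.48 (adjusted p = 0.278, limma) and was not called. The 8 DBA mPFC arrays share 1 slide that holds no other group, so slide and group cannot be told apart. Over the 7 member probes, no sample stood out in the groups of 4 samples (28 checks), and groups of fewer samples, the DBA mPFC groups among them, were not checked.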

How the results depend on the processing

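Counts of member probes called, by limma, moved as follows. The shares of all probes given above are those of the main fit. Shares under these other settings are not given, so the counts are no result about the members as such. With scanner files taken as listed, 1 probe (Xlr5a) was called for RCF in the C57 mPFC, C57 NAc and DBA mPFC, in both strain by RCF interactions and in each strain over both regions. With those files 0 were called for strain in control mPFC, for region in both DBA comparisons and for strain by region. Under normexp and in the series matrix, which lacks the Xlr5a probe, 0 were called in these comparisons and for strain in RCF mPFC. For strain in RCF NAc, 0 were called in the series matrix, with array weights and without the samples in doubt. For strain in control NAc, 1 (Xlr4a) was called under normexp and 3 (Xlr3b and both Xlr4a probes) with each of the 31 arrays as a sample. Array weights gave 3 for strain in RCF mPFC (Xlr4a, Xlr4b, Xlr5a) and 2 for region in DBA control mice (Xlr3a, Xlr5a), and quantile normalization also gave 2 there. Leaving out 1 sample at a time gave 0 to 1 for strain in control NAc, where Xlr4a was called without DBA NAc control 4, and 0 to 1 in RCF NAc. The cause was not tested.

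In the C57 mPFC, RCF minus control of Xlr4b was -0.16 with array weights. With 1 sample left out at a time it ran from -0.45 to 0.58, that of Xlr4a from -0.24 to 0.86 and that of Xlr3b from -0.00697 to 1.08. In the DBA mPFC that of Xlr3b ran from -0.0847 to 0.90. A sample left alone in its group was assumed to vary like the others. Same-numbered arrays had a median r of their deviations of -0.04 over regions and -0.03 over treatments, against 0.05 for other numbers in each. Over 15 pairs each, the r ran from -0.63 to 0.40 and from -0.45 to 0.65. This spread is too wide to decide whether arrays of 1 number are linked. With the number as a replicate block, the counts of member probes called did not change, and Xlr4b in RCF NAc differed between strains by 1.72 (adjusted p = 0.0489, limma). Signal over background limits Xlr3a, Xlr5a and the second Xlr4a probe.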
